A study of Mus musculus with 6 samples.

Results

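The genes described here are 48 genes of the cell division cycle in mouse cells. They were chosen by name, as a fixed list of symbols, from 30281 gene symbols in the deposited table. The rule itself uses no measured value, but the list was chosen with earlier results of these data known. By the phase in which their products mainly act, 17 were grouped as G1 genes, 12 as S genes and 19 as G2/M genes. All 48 were found and all 48 passed the filters on low values in every comparison. RNA was measured in 6 libraries, each from a different cell line or treatment. Of the mouse embryo fibroblasts (MEFs), 1 library came from *Tsc2*+/+ p53-/- cells and 1 from *Tsc2*-/- p53-/- cells, so both genotypes also lack p53, and neither was treated. The other 4 libraries came from MKOC and TJ cells, a pair of *Tsc2*-null kidney epithelial lines, each untreated or exposed to 100 nM rapamycin for 18 hours. The labels describe TJ cells as derived from a secondary tumor in C57BL6 mice. According to the treatment protocol, all cells were kept in serum-free medium with 0.1% bovine serum albumin, and no *Tsc2*-expressing kidney line was analysed here.

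Progress through the cell cycle is driven by cyclin-dependent kinases (CDKs) bound to cyclins. In G1, growth signals raise D-type cyclins, which with CDK4 and CDK6 phosphorylate the retinoblastoma protein and release E2F transcription factors. E2F factors then switch on cyclin E and the replication genes of S phase, and a later wave of genes for mitosis follows. CDK inhibitors of the INK4 and CIP/KIP families hold this step back. The product of *Tsc2*, tuberin, restrains mTORC1, a kinase complex that promotes cell growth and that rapamycin inhibits, and loss of *Tsc2* is known for benign kidney tumors.

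The libraries held between 22887020 and 37505004 estimated read counts, and levels are given as TPM, a measure of abundance per transcript length in which every library has the same total. The kidney lines carried kidney and epithelial transcripts, with *Krt8* at 539 to 990 TPM and *Cdh16* at 395 to 720 TPM, and 4 of 7 epithelial and 4 of 5 kidney markers reached 1 TPM in each library. *Epcam*, *Krt19*, *Cldn7* and *Lhx1* were below 1 TPM, and the macrophage gene *Csf1r* was at 11.3 to 30.3 TPM. Of 7 fibroblast genes, 6 to 7 reached 1 TPM in the MEFs and 1 to 2 in the kidney lines. Of 5 markers each, 0 to 1 endothelial and 1 to 2 macrophage genes reached 1 TPM in any library, as did 3 to 4 smooth muscle genes in the MEFs and 1 in the kidney lines. *Tsc2* RNA was at 22.6 TPM in *Tsc2*+/+ cells but still at 10.5 TPM in *Tsc2*-/- cells. In the lines labelled null it fell with rapamycin, from 49.1 to 19.5 TPM in MKOC and from 44 to 19.1 TPM in TJ cells (log2 change -1.27). These RNA levels do not check the protein or the deleted sequence. In *Tsc2*+/+ MEFs, 20.9% of all TPM fell on transcripts shorter than 300 bases, against 7.12% in *Tsc2*-/- MEFs and 4.09% to 8.0% in the kidney lines.

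All 48 genes were expressed in every library, from 0.981 TPM for *E2f2* in *Tsc2*+/+ MEFs to 1095 TPM for *Cdk4* in *Tsc2*-/- MEFs. Their median level was 22 and 59.3 TPM in *Tsc2*+/+ and *Tsc2*-/- MEFs, 75 TPM in untreated MKOC, 67.4 TPM in rapamycin-treated MKOC, 65.2 TPM in untreated TJ and 62.1 TPM in rapamycin-treated TJ cells. *Tsc2*+/+ MEFs held the lowest TPM of the 6 libraries for 37 of the 48 genes, and for 19 of the 19 G2/M genes. By TPM the highest level was never in that library. On TMM-scaled counts it was lowest for 37 genes, 18 of them G2/M genes, and highest for 3. *Tsc2*-/- MEFs were highest for 9 of the 17 G1 genes and for 4 of the 12 S genes, whereas each of the 19 G2/M genes was highest in a kidney library. The shares of all genes lowest or highest in each library were not counted, and 4 of the 6 libraries are kidney libraries. TPM of the median gene was also 1.37-fold higher in *Tsc2*-/- than in *Tsc2*+/+ MEFs.

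**Figure D1:**
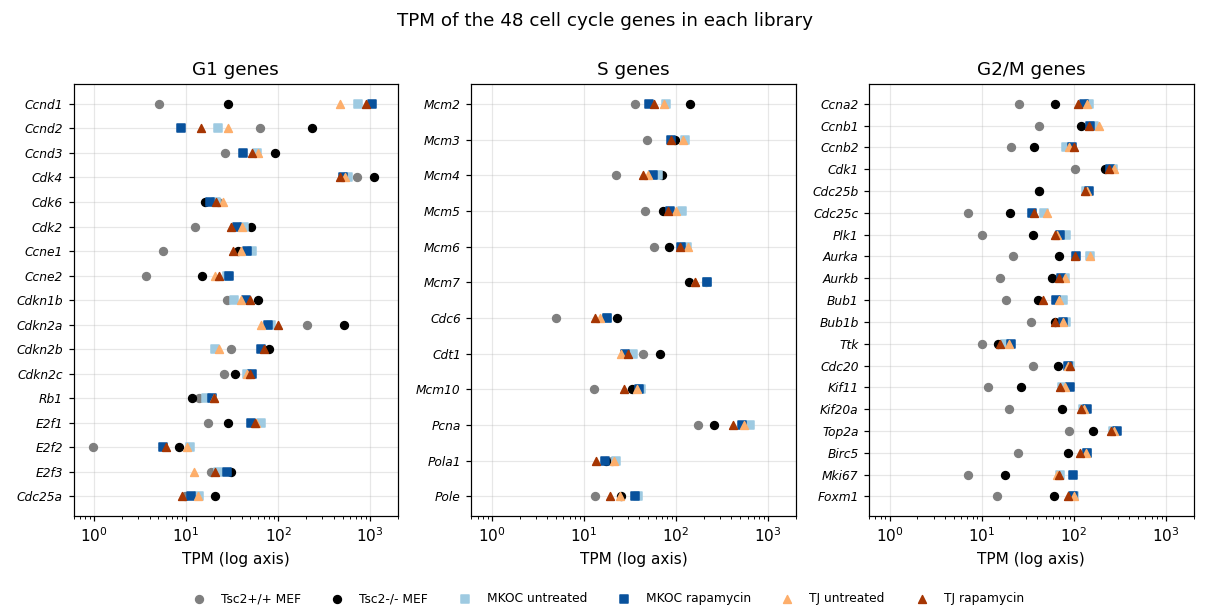
Level of each of the 48 genes in TPM on a log axis, with 1 point per library and 1 panel per phase. In the G2/M panel the *Tsc2*+/+ MEF points have a median of 21 TPM and lie at the left, except that for *Cdc25b* both MEF libraries coincide at 41.5 TPM, and the 4 kidney libraries have medians of 88.6 to 97 TPM.

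Short promoter sequences are shown for genes whose levels differed in the comparisons that follow. Promoter sequences of 37 of the 48 genes were found in RefSeq (GRCm38.p6), as 43 windows from 250 bases before to 50 bases after a transcription start. Each was searched on both strands for TTTCCCGC and TTTGGCGC (forms of the E2F site), for TTTGAA (the core of the CHR element, known from mitotic genes) and for CCAAT. None of these words contains another. The 250 bases before the start are printed 5′ to 3′ on the gene's strand, with matches in capitals.
*Cdkn2b*, the member with the greatest rise under rapamycin, chr4:89311033-89311282 (- strand): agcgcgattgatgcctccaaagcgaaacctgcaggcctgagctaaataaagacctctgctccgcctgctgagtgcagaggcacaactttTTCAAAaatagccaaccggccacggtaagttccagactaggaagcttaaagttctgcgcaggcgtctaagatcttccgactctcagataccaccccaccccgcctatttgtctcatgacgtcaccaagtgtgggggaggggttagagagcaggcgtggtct
*Mcm2*, an S gene that fell under rapamycin, chr6:88898781-88899030 (- strand): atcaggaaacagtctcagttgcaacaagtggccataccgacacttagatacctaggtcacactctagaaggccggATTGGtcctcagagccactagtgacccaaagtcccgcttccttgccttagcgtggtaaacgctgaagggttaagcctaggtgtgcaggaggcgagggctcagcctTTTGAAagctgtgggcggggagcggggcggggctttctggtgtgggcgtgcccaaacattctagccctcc
*Mcm5*, an S gene that fell under rapamycin, chr8:75109259-75109508 (+ strand): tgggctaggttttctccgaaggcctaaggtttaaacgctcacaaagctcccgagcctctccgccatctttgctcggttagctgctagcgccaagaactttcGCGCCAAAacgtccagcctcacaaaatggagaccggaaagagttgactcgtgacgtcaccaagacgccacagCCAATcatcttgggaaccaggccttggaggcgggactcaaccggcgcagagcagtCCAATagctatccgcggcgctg
*Aurka*, a G2/M gene that fell under rapamycin, chr2:172370571-172370820 (- strand): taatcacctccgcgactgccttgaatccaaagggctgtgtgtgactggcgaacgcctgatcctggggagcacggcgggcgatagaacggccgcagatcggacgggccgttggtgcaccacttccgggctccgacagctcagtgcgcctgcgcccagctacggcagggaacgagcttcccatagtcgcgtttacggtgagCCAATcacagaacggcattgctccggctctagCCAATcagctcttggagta
*Ccnb2*, a G2/M gene that was higher in kidney lines than in MEFs, chr9:70421555-70421804 (- strand): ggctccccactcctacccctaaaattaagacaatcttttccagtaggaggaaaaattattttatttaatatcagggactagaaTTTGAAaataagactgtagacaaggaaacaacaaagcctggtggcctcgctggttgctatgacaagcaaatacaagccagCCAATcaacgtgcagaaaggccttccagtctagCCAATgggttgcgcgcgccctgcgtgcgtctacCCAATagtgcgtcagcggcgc

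An E2F form was present in 7 of 11 windows of S genes (63.6%), in 5 of 18 windows of G1 genes (27.8%) and in 0 of 14 windows of G2/M genes, compared with 1.56% of all 32851 promoter windows. The S genes with a match were *Cdc6*, *Cdt1*, *Mcm3*, *Mcm5*, *Mcm6*, *Mcm7* and *Pola1*. The CHR letters were found in 10 of 14 windows of G2/M genes (71.4%), 1 of 11 of S genes (*Mcm2*) and 3 of 18 of G1 genes, against 17.9% of all windows. CCAAT was found in 13 of 14 G2/M windows, 9 of 11 S windows and 9 of 18 G1 windows, against 37.4% of all. In *Mcm5* the E2F letters and 2 of the CCAAT boxes lie within the printed bases, and in *Ccnb2* 1 CHR word and 3 CCAAT boxes. A match describes the letters only. Among the 13 genes that fell under rapamycin were genes with an E2F form (*Cdc25a*, *Cdk2*, *E2f2*, *Mcm3*, *Mcm5*, *Pola1*) and genes whose window held none (*Ccnd3*, *Mcm2*, *Pcna*, *Aurka*, *Bub1*), while *Ccnd2* and *Cdc25c* had no window.

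To ask how the genes responded to inhibition of mTORC1, rapamycin-treated and untreated kidney cells were compared with the line as a covariate. The CDK inhibitor *Cdkn2b* rose 3.11-fold and *Ccnd1*, the cyclin D1 gene, 1.64-fold, while cyclin D2 (*Ccnd2*) and *E2f2* fell to 0.442 and 0.514 of their untreated levels. Part of the MCM helicase, the replication clamp *Pcna* and the mitotic kinase *Aurka* fell by a smaller margin. In all, 3 of the 48 genes rose and 13 fell at an adjusted p below 0.05 (edgeR quasi-likelihood test over 12952 genes), and 32 did not pass. Of all genes tested, 17.5% rose and 17.4% fell, so the share of the 48 that fell (27.1%) was above this background and the share that rose (6.25%) below it. The median log2 change was -0.17 for the 48 genes and 0.02 for all genes. By phase, 3 rose and 5 fell of the G1 genes, 0 and 5 of the S genes, and 0 and 3 of the G2/M genes. At an unadjusted p under 0.05, edgeR gave 0 higher S genes and 1 higher G2/M gene, and DESeq2 gave 0 of either after adjustment. In bulk libraries, fewer cells in a phase and less RNA per cell cannot be told apart. The summed level of the 7 epithelial markers went from 952 to 1492 TPM in MKOC and from 968 to 1636 TPM in TJ cells, and its part in these changes was not tested.

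The 3 D-type cyclins, which activate CDK4 and CDK6, did not move together. *Ccnd1* (chr7:144929931-144939925, GRCm38) went from 732 to 1047 TPM in MKOC and from 466 to 892 TPM in TJ cells. Both treated libraries lay above both untreated ones, with a log2 change of 0.71 ± 0.13 (SE, 2 lines, adjusted p = 0.0023, edgeR). *Ccnd2* (chr6:127125162-127152193) went from 22.2 to 8.72 TPM in MKOC and from 28.8 to 14.5 TPM in TJ cells. Its groups did not overlap and its log2 change was -1.18 ± 0.12 (adjusted p = 1e-04, edgeR). *Ccnd3* (59.5 to 41.3 TPM, and 60.3 to 51.7 TPM) fell by 0.44 on the log2 scale. Cyclin D1 thus made up 90% and 84% of D-cyclin TPM in untreated MKOC and TJ cells and 95.4% and 93.1% after rapamycin.

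Of the genes listed as CDK inhibitors, 2 rose (*Cdkn2b* and *Cdkn1b*) and *Cdkn2c* and *Cdkn2a* did not pass. *Cdkn2b* (chr4:89306299-89311039), which encodes the CDK4 and CDK6 inhibitor p15, was at 20.4 and 22.9 TPM in untreated MKOC and TJ cells and at 64.6 and 70.7 TPM after rapamycin. The treated and untreated values were far apart, with a log2 change of 1.64 ± 0.11 (3.11-fold, adjusted p = 1.3e-05, edgeR), and counting error alone placed the untreated MKOC value between 18.7 and 22.3 TPM and the treated one between 61 and 68.3 TPM (95% Wilson intervals, counting error only). *Cdkn1b*, the gene of p27, went from 32.8 to 44.7 TPM in MKOC and from 39.2 to 49.9 TPM in TJ cells, a log2 change of 0.37 ± 0.11 (adjusted p = 0.021, edgeR). *Cdkn2c* (p18) was at 45.4 and 46.3 TPM untreated and 49.6 and 52.6 TPM treated and did not pass (adjusted p = 0.24, edgeR). *Cdkn2a* encodes the CDK inhibitor p16Ink4a and, from another first exon, p19Arf, which is not a CDK inhibitor but acts on the p53 pathway. In the kidney libraries 99.7% to 100% of its counts were on the p19Arf transcript. It went from 83.2 to 76.7 TPM in MKOC and from 65.2 to 98.5 TPM in TJ cells, so the lines differed in direction and the groups overlapped. *Cdkn1a*, the gene of the inhibitor p21 and not among the 48, went the other way, from 77.3 to 32.4 TPM in MKOC and from 77 to 32.1 TPM in TJ cells (log2 change -1.27 ± 0.11, adjusted p = 3.1e-05, edgeR).

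**Figure D2:**
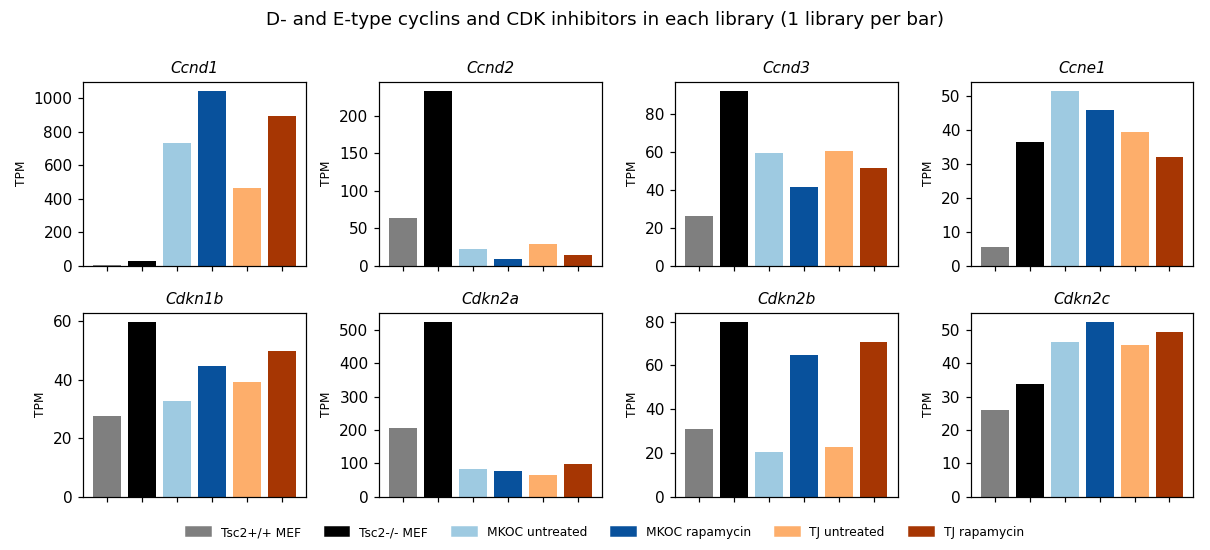
TPM of cyclin and CDK inhibitor genes in each library, on a linear axis starting at 0 with 1 bar per library and a separate scale for each gene. *Cdkn2b* rises from 20.4 and 22.9 TPM to 64.6 and 70.7 TPM with rapamycin, and *Ccnd1* is at most 28.3 TPM in the MEFs and at least 466 TPM in the kidney lines.

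Among the remaining G1 genes, *E2f2*, an activating E2F factor, went from 10.9 to 5.59 TPM in MKOC and from 10.1 to 6.1 TPM in TJ cells (log2 change -0.96 ± 0.14, adjusted p = 7.9e-04, edgeR). *E2f1* and *Rb1*, the retinoblastoma gene, did not pass. *Cdk2*, the kinase partner of cyclin E, fell by 0.33 and *Cdc25a*, the phosphatase that activates CDK2, fell by 0.43 on the log2 scale. Both lost their call with DESeq2 and with limma on log2 TPM, and *Cdk2* also with upper-quartile factors. DESeq2 did not call *Ccnd3* or *Cdkn1b* either. *Cdk4*, *Cdk6* and the E-type cyclins *Ccne1* and *Ccne2* did not pass, with log2 changes between -0.24 and 0.02. The value of *E2f3* depended on the scale. Its log2 change was -0.14 from counts (adjusted p = 0.36, edgeR), but TPM rose from 22.3 to 28 in MKOC and from 12.2 to 20.7 in TJ cells, and a transcript of 216 bases holding at most 1.02% of its counts supplied up to 58.5% of its TPM.

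Of the 12 S genes, 11 had negative fitted changes, with a median of -0.25, and the 5 that passed all fell. In the MCM2-7 complex, the helicase that unwinds DNA at the replication fork, *Mcm2*, *Mcm3* and *Mcm5* fell while *Mcm4*, *Mcm6* and *Mcm7* did not pass. *Mcm2* (chr6:88883474-88898780) went from 77.4 to 51 TPM in MKOC and from 73.5 to 58.1 TPM in TJ cells (log2 change -0.48 ± 0.10, adjusted p = 0.0062, edgeR). *Mcm3* and *Mcm5* fell by 0.41 and 0.36 on the log2 scale. *Mcm7* was at 215 and 161 TPM untreated and 219 and 161 TPM treated, a log2 change of 0.02. *Pola1*, the catalytic subunit of polymerase alpha that primes synthesis, went from 22.1 to 17 TPM and from 21 to 13.5 TPM (log2 change -0.52 ± 0.11, adjusted p = 0.006, edgeR), and *Pcna*, the sliding clamp, fell by 0.35. *Pole*, the catalytic subunit of polymerase epsilon, and the licensing and origin firing genes *Cdc6*, *Cdt1* and *Mcm10* did not pass, with values between -0.25 and -0.03.

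Of the 19 G2/M genes, 3 fell (15.8%), near the 17.4% of all genes, and their median log2 change was -0.10. The difference between phases was not tested. *Aurka* (chr2:172356190-172370535), a kinase of the spindle poles, went from 150 to 106 TPM in MKOC and from 151 to 102 TPM in TJ cells, with no overlap between treated and untreated libraries (log2 change -0.54 ± 0.10, adjusted p = 0.0022, edgeR). *Cdc25c*, a phosphatase that activates CDK1, went from 48.1 to 35.1 TPM and from 51 to 36.6 TPM, and fell by 0.47. The spindle checkpoint kinase *Bub1* went from 76.1 to 64.5 TPM and from 69.9 to 45.9 TPM, and fell by 0.44. The mitotic cyclins *Ccna2*, *Ccnb1* and *Ccnb2* and their kinase *Cdk1* did not pass, with values from -0.28 to 0.19, and *Ccna2* lay just outside the threshold (adjusted p = 0.051, edgeR). *Mki67*, the gene of the proliferation marker Ki-67, was at 65.3 and 70.1 TPM untreated and 69.2 and 97 TPM treated. The other G2/M genes (*Cdc25b*, *Plk1*, *Aurkb*, *Bub1b*, *Ttk*, *Cdc20*, *Kif11*, *Kif20a*, *Top2a*, *Birc5*, *Foxm1*) had log2 changes between -0.23 and 0.06, and none of them passed.

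Within each line alone, TPM relative to the median gene was lower with rapamycin in both lines for 31 of the 48 genes, higher in both for 9, and of opposite sign for 8. The shares of all genes with these patterns were not counted, so the numbers do not set the 48 apart. The 3 genes that rose and the 13 that fell had the same sign in both lines. They were selected by a test over these same lines, so this is no separate support. Of 94 other genes of the same pathways, 93 were tested, and 7 rose and 22 fell. The strongest of these were the E2F partner *Tfdp2* (log2 change 0.85 ± 0.11) and the E2F repressor *E2f7* (0.70 ± 0.13) upward, and *Cdkn1a* and the transcription factor gene *Mybl2* (-1.03 ± 0.12) downward. By phase, 3 rose and 4 fell of 16 other G1 genes, 1 and 13 of 33 other S genes, and 3 and 5 of 44 other G2/M genes. The lines served as replicates, so p-values rest on 1 residual degree of freedom plus the spread shared across genes. Without the line as a covariate, 1 member rose (*Cdkn2b*) and 2 fell (*E2f2* and *Aurka*), with 1275 genes called in all against 4526 with it, and when any 1 of the 4 libraries was also left out, 0 or 1 rose and 0 or 1 fell, with 0 to 613 genes called in all and no member called without untreated TJ (edgeR, with 2 higher and 7 lower at an unadjusted p under 0.05).

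**Figure D3:**
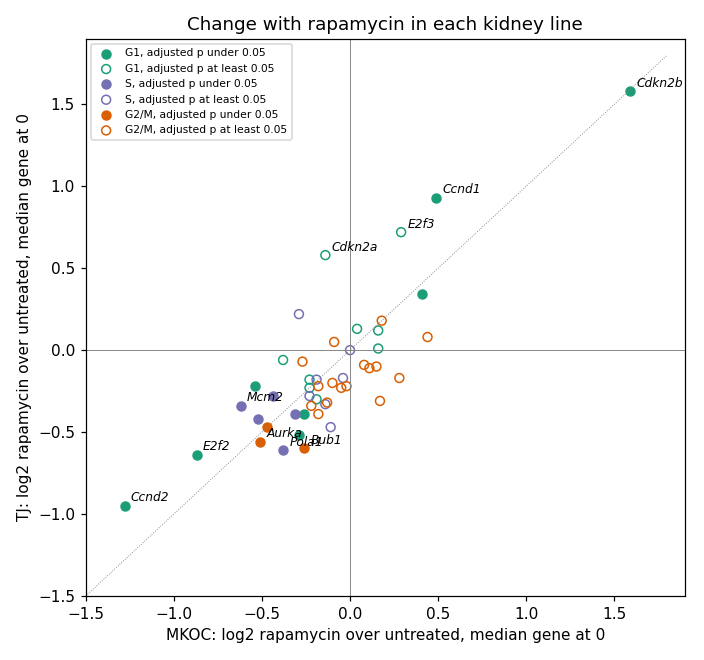
Log2 change of TPM with rapamycin in MKOC (horizontal) and TJ cells (vertical), with 1 added to TPM and the median gene set to 0. Each point is 1 of the 48 genes, filled where edgeR's adjusted p is under 0.05, the dotted line marks equal change, and *Cdkn2b* (1.59 and 1.58) and *Ccnd2* (-1.28 and -0.95) lie at the ends.

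The kidney lines were next compared with each other in the same fit. TJ cells had more *Ccnd2* than MKOC cells and less *Ccnd1*, *Ccne1*, *Ccne2*, *Mcm4*, *Mcm7* and *Pole*. This was 1 gene higher and 6 lower of 48, against 5.47% higher and 3.32% lower over all genes, with 41 genes not passing. Of the 19 G2/M genes edgeR called 0 (3 lower at an unadjusted p under 0.05, and 0 by DESeq2). DESeq2 called 1 member higher and 3 lower, without *Ccne1*, *Ccne2* and *Mcm4*. Limma on log2 TPM called none of these 3, nor *Ccnd1* or *Ccnd2*, and *Ccnd1* and *Mcm4* were also lost with a filter at 1 CPM and with upper-quartile factors. The largest difference was that of *Pole*, at 38.5 and 35.6 TPM in MKOC cells and 24.4 and 19.2 TPM in TJ cells, untreated and treated (log2 difference -0.79 ± 0.10, adjusted p = 0.0013, edgeR). *Ccne1* was at 51.6 and 46 TPM in MKOC cells and 39.4 and 31.9 TPM in TJ cells, and *Ccne2* at 28.1 and 29.3 TPM and 20.8 and 22.9 TPM, so the lines did not overlap for either E-type cyclin. *Ccnd1* and *Ccnd2* differed by -0.47 and 0.53. *Mcm4* and *Mcm7* differed by -0.36 and -0.44. Of 93 other pathway genes, 0 were higher and 7 lower by edgeR (1 higher at an unadjusted p under 0.05, and 0 by DESeq2), among them *Cdc7*, an origin firing kinase (-0.60), and *Rfc5*, a clamp loader subunit (-0.53). Each line had 1 library per treatment, and a difference between the lines and one between cultures cannot be told apart.

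To see how the genes differed between the cell types, the untreated kidney libraries were compared with the MEF libraries, which differ in *Tsc2* genotype. *Ccnd1* was 36.8-fold and *Mki67* 5.36-fold higher in the kidney lines, and *Cdkn2a* was at 0.202 of its MEF level. At an adjusted p below 0.05, 6 of 48 genes were higher in the kidney lines (*Ccnd1*, *E2f1*, *Ccnb2*, *Cdc25b*, *Kif11* and *Mki67*) and 1 was lower (*Cdkn2a*), against 4.74% higher and 5.2% lower over 13473 genes (edgeR). The fitted log2 difference was positive for 19 of 19 G2/M genes, with a median of 1.37, for 10 of 12 S genes (0.46) and for 11 of 17 G1 genes (0.11), beside -0.04 for all genes. Of the 19 G2/M genes, 4 passed. Limma on log2 TPM did not call *Cdkn2a*, *E2f1*, *Ccnb2* or *Kif11* with either constant, nor *Mki67* with 0.1 added.

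*Ccnd1* was at 5.09 and 28.3 TPM in *Tsc2*+/+ and *Tsc2*-/- MEFs and at 466 to 1047 TPM in the 4 kidney libraries (log2 difference of untreated lines 5.20 ± 0.87, adjusted p = 0.044, edgeR). *Ccnd2* showed the opposite order, at 63.7 and 234 TPM in the MEFs and 8.72 to 28.8 TPM in the kidney libraries, and did not pass (adjusted p = 0.064). Of all D-cyclin TPM, *Ccnd2* made up 66.9% and 66% in the MEFs and 0.795% to 5.19% in the kidney libraries. *Cdkn2a* was at 205 and 525 TPM in the MEFs and 65.2 to 98.5 TPM in the kidney libraries, with no overlap (log2 difference -2.31 ± 0.38, adjusted p = 0.044, edgeR). *Cdkn1a* was at 3.58 and 11.4 TPM in the p53-/- MEFs and at 77.3 and 77 TPM in untreated kidney cells (3.37 ± 0.49, adjusted p = 0.037, edgeR). Of the mitotic genes, *Mki67* was at 7.03 and 17.9 TPM in the MEFs and 65.3 to 97 TPM in the kidney libraries (2.42 ± 0.36, adjusted p = 0.038, edgeR), and *Kif11*, a motor that separates the spindle poles, at 11.7 and 27 TPM and 70.8 to 91.7 TPM. *Cdc25b*, a phosphatase that starts the activation of CDK1, was at 41.5 TPM in both MEF libraries and 132 to 145 TPM in the kidney libraries.

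By TPM, the 4 kidney libraries all lay above both MEF libraries for 26 of the 48 genes and all below for 4 (*Ccnd2*, *Cdk4*, *Cdkn2a* and *Cdt1*), against 27.7% and 22% of all genes, and 18 genes overlapped. Of 93 other pathway genes, 17 were higher and 0 lower by edgeR (1 lower at an unadjusted p under 0.05, and 1 by DESeq2), and 13 of the 17 were G2/M genes. Named among them by size were *Rrm2*, a ribonucleotide reductase subunit (3.99 ± 0.45), and *Cdkn3*, a CDK phosphatase (3.50 ± 0.30). The counts depended on the libraries. A fit without a MEF library sets 1 MEF library against both kidney lines and assumes that it varies as they do. Without *Tsc2*-/- MEFs 36 members were higher and 5 lower, with 7924 of 14122 genes called in all, without *Tsc2*+/+ MEFs 28 and 6, with 6886 of 14427 genes called, and without either untreated kidney library 0 and 0 (edgeR, with 10 higher and 1 or 2 lower at an unadjusted p under 0.05). With DESeq2, 20 were higher and 5 lower, and 3969 of 13473 genes were called, against 1338 with edgeR, so the counts of members moved together with those of all genes. The cell type, the *Tsc2* genotype of 1 of the MEF lines and the p53 genotype, which the labels give for the MEFs alone, cannot be told apart here.

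**Figure D4:**
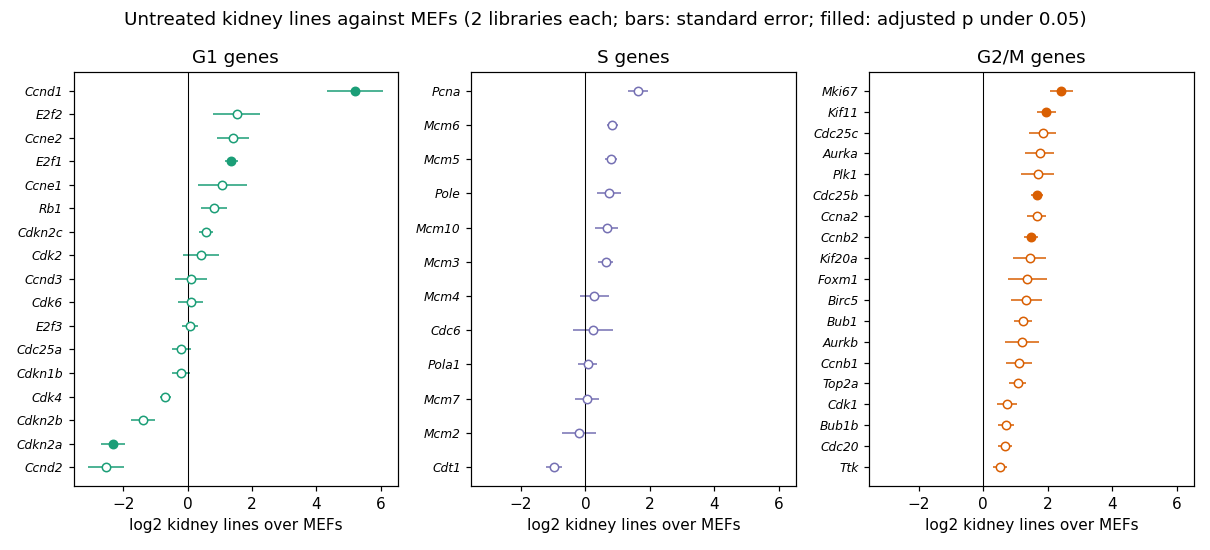
Fitted log2 difference between untreated kidney lines and MEFs for each gene, with bars of 1 standard error and 2 libraries per group. Points of the 19 G2/M genes all lie right of 0, between 0.52 and 2.42, with 4 of them filled (edgeR adjusted p under 0.05).

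Finally, *Tsc2*-/- and *Tsc2*+/+ MEFs were compared, with 1 library each, so that no test was possible and a difference cannot be set against replicate error. In *Tsc2*-/- MEFs the D-type and E-type cyclins, *E2f2*, *Cdk2* and the mitotic kinases *Plk1*, *Aurka* and *Aurkb* were at least 2-fold higher relative to the median gene. Differences are given as log2 ratios of TPM with 1 added, minus that of the median gene, since the median gene itself was 1.37-fold higher in the *Tsc2*-/- library. On this scale 17 of the 48 genes were at least 2-fold above the median gene and 1, *Mcm7*, at least 2-fold below, against 13.4% and 10.3% of 12771 genes. The median of the 48 genes was 0.68, and 42 lay above the median gene. The 17 consisted of 7 G1, 3 S and 7 G2/M genes.

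With 1 TPM added, *Ccne1* had the largest difference of the 48 genes (with 0.1 added, *E2f2* exceeded it), from 5.6 TPM in *Tsc2*+/+ to 36.3 TPM in *Tsc2*-/- MEFs (log2 2.05), and *Ccne2* went from 3.67 to 14.8 TPM (1.31). The D-type cyclins differed by 1.81 (*Ccnd1*), 1.41 (*Ccnd2*) and 1.32 (*Ccnd3*), so that their shares of D-cyclin TPM were close in the libraries, with *Ccnd1* at 5.35% and 7.96%. *E2f2* went from 0.981 to 8.28 TPM, with counting intervals of 0.832 to 1.16 and 7.49 to 9.14 TPM, and *Cdk2* from 12.5 to 50.7 TPM. The MCM genes were uneven. *Mcm2* went from 35.5 to 141 TPM (1.5) and *Mcm4* from 22.5 to 70.4 TPM (1.15), but *Mcm7* from 213 to 139 TPM (-1.07). *Cdc6*, a licensing factor that loads the MCM helicase, went from 5 to 22.6 TPM (1.52). Among G2/M genes, *Foxm1*, a transcription factor of mitotic genes, went from 14.6 to 60.6 TPM (1.53), and the kinases *Plk1*, *Aurka* and *Aurkb* differed by 1.27, 1.17 and 1.36. *Kif20a*, *Birc5* and *Ccnb1* were the other G2/M genes past 2-fold, and *Cdc25b* lay at -0.45.

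*Cdkn2a* (chr4:89274471-89294653, minus strand) was at 205 and 525 TPM, 0.90 above the median gene, and its 2 main transcripts, which start at different first exons and share later ones, differed. The upstream promoter, from which p19Arf is made, and the downstream one, from which p16Ink4a is made, are shown because reads were divided between their transcripts.
*Cdkn2a*, p19Arf start, chr4:89294620-89294869 (- strand): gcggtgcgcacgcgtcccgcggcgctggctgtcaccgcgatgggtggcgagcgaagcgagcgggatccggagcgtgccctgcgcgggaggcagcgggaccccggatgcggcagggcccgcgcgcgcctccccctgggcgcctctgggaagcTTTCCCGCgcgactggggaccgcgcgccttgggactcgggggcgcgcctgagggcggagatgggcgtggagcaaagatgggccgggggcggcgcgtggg
*Cdkn2a*, p16Ink4a start, chr4:89282193-89282442 (- strand): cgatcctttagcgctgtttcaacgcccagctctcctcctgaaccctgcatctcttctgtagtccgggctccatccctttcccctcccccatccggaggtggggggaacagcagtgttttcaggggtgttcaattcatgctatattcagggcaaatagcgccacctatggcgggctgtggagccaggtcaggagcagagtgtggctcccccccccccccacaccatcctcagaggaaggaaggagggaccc

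The p19Arf transcript (chr4:89274541-89294653) took 4516 and 4924 estimated counts in *Tsc2*+/+ and *Tsc2*-/- MEFs, 205 and 445 TPM. The p16Ink4a transcript (chr4:89274471-89282192) took 4.81 and 824 counts, 0.232 and 79.3 TPM, a ratio of 341 with a counting interval of 139 to 837. Unlike the other MEF differences, this ratio is of TPM with nothing added and is not centred on the median gene. Its *Tsc2*+/+ count lies near the floor of 3 counts. In the kidney libraries the p16Ink4a transcript had 0 to 3.4 counts, about the floor of 3 counts, and 99.7% to 100% of *Cdkn2a* counts were on the p19Arf transcript. Counts of transcripts that share exons are estimates by Kallisto. *Cdkn2b*, the neighboring gene, was at 31 and 80.1 TPM in the MEFs (0.89).

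Of 94 other pathway genes in the MEFs, 17 (18.1%) were at least 2-fold above the median gene and 1 below, near the 13.4% of all genes above. The CDK inhibitor *Cdkn1c* went from 0 to 8.14 TPM, *Tk1*, a thymidine kinase, from 11.6 to 61.9 TPM (1.86) and *Cenpe*, a kinetochore motor, from 22.2 to 13.6 TPM (-1.12). Without centring, 28 of the 48 genes were at least 2-fold higher and 0 lower, beside 25.2% and 5.18% of all genes. Leaving out transcripts under 300 bases, on which the MEF libraries differed, gave 17 and 1 again. The share of dividing cells in the MEF cultures was not measured. Epithelial markers also differed between the MEF libraries, with 0 of 7 genes at 1 TPM and a sum of 0.15 TPM in *Tsc2*+/+ and 2 of 7 and 77.7 TPM (*Krt19* 55.6 TPM) in *Tsc2*-/-, and their part in these differences was not tested.

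**Figure D5:**
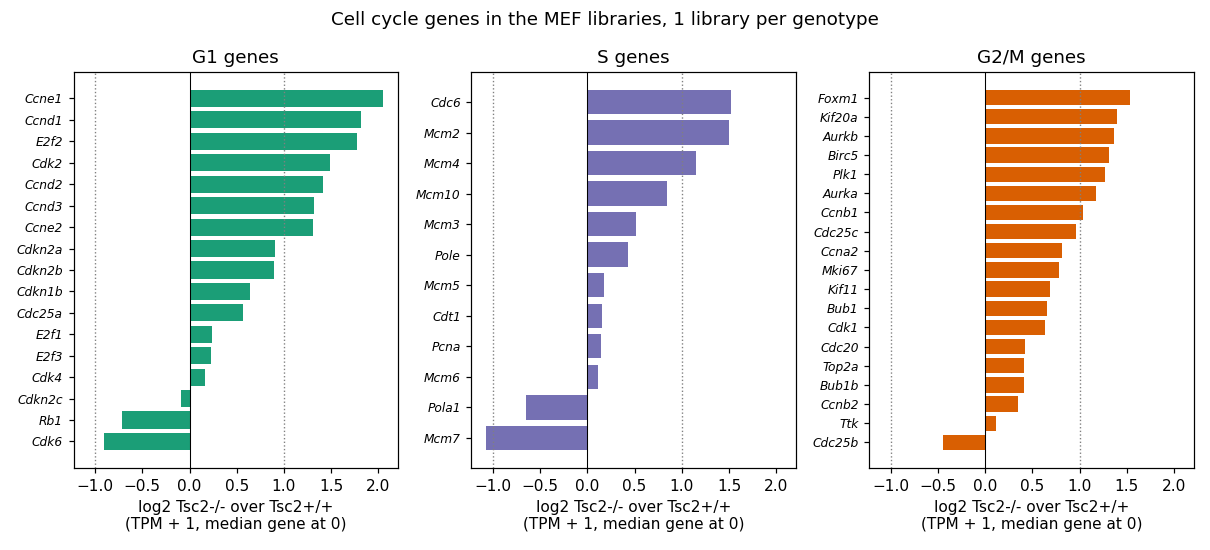
Log2 ratio of TPM (1 added) in *Tsc2*-/- over *Tsc2*+/+ MEFs for each gene, with the median gene at 0 and dotted lines at 2-fold. Bars run from -1.07 for *Mcm7* to 2.05 for *Ccne1*, with 42 of 48 genes to the right of 0.

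The MEF and rapamycin comparisons share no library. Of the 48 genes, 33 lay above the median gene in *Tsc2*-/- MEFs and had a negative fitted change with rapamycin in kidney cells, 9 were above and positive, 2 below and negative and 4 below and positive. Over all genes in both comparisons, 25.8% were above and negative. Of the 48, however, 42 were above in the MEFs and 35 were negative with rapamycin. These totals alone place most of the 48 in both groups, and a link beyond them was not tested. *Ccnd2* (1.41 and -1.18), *E2f2* (1.77 and -0.96) and *Mcm2* (1.5 and -0.48) were of opposite sign in this way, whereas *Ccnd1* (1.81 and 0.71) and *Cdkn2b* (0.89 and 1.64) were higher in both. Every kidney library is labelled *Tsc2*-null, so no genotypes were compared in those lines.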

How the data were processed

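RNA was sequenced from 6 libraries, with 1 library per line and treatment. According to the study's methods, poly(A) RNA was made into stranded libraries, reads were trimmed with Trimmomatic, and Kallisto estimated transcript abundance. Although a human reference is named there, the deposited identifiers belong to mouse transcripts. The version of Kallisto and its strand setting are not given in the sources used here. The authors deposited estimated counts and TPM for 88198 transcripts. They also deposited a ratio (fold change) per transcript for the MEFs, which was used only for its gene symbols. Transcripts with no symbol, 0.372% to 0.468% of counts, were left out.

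Estimated counts and TPM were summed per symbol. Summed counts were rounded, filtered with filterByExpr, scaled by TMM and compared over all genes by the quasi-likelihood test of edgeR, with Benjamini-Hochberg adjustment at 0.05. Rapamycin was tested with line as a block, and TJ against MKOC in the same fit. Libraries were paired by line, as labelled. Deviations of the libraries of a line correlated at 0.562 over 12952 genes, a value that is mirrored between the lines with 2 libraries per group. Labels do not say whether libraries are separate cultures, so p-values measure the spread between these libraries, which may be technical. MEF differences used TPM with 1 added, genes with at least 1 TPM in either library, and the median gene at 0. A call there is 2-fold, with no test. Wilson intervals of 95% and a floor of 3 counts cover counting error only. A counting interval for a ratio of estimated counts is approximate.

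The members, the 94 other pathway genes and the marker lists were chosen with earlier results of these data known. Named genes are the 48 members, in each comparison the 2 other pathway genes called highest and the 2 called lowest, *Cdkn1a*, and *Tsc2* as a check of the labels. Gene positions are from GENCODE M21 (GRCm38).

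Alternatives were DESeq2, upper-quartile factors, other filters, limma on log2 TPM with 0.1 or 1 added, no line term, leaving out short transcripts (under 300 bases) or each library in turn, and, for the MEFs, other added constants, CPM, no centring and a 1.5-fold threshold. The edgeR fits were tested on data simulated from these libraries, with 200 genes changed. For rapamycin, over 12790 genes, 63 of 67 genes changed 2-fold were recovered, 64 of 67 changed 4-fold and 61 of 66 changed 32-fold. There were 18 false calls in all. For TJ against MKOC (12802 genes) 58, 62 and 64 were recovered, with 22 false calls. Changes smaller than 2-fold, which most members called under rapamycin had, were not simulated. For kidney against MEF (13211 genes), 0 of 67 changed 2-fold and 44 of 66 changed 32-fold were recovered. Tools were R 4.3.3, edgeR 4.0.16, limma 3.58.1, DESeq2 1.42.0, Python 3.11.15, matplotlib 3.10.9, scipy 1.17.1, pandas 2.3.3 and numpy 2.4.6.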

Additional observations from a re-analysis of the deposited data

Results flagged for a closer look

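In 8 of the 48 genes the change with rapamycin, as log2 TPM relative to the median gene, had one sign in MKOC and the other in TJ cells. Each line is 1 library per treatment, so these differences between the lines were not tested. The largest were those of *Cdkn2a* (-0.14 in MKOC and 0.58 in TJ), the licensing factor *Cdt1* (-0.29 and 0.22), the spindle checkpoint kinase *Ttk* (0.17 and -0.31) and the spindle motor *Kif11* (0.28 and -0.17). The values of *Cdc20*, an activator of the anaphase-promoting complex, were -0.09 and 0.05, and those of *Cdc25b* 0.08 and -0.09. For *Kif20a*, a kinesin of cytokinesis, they were 0.15 and -0.10, and for the topoisomerase *Top2a* 0.11 and -0.11. None of the 8 genes passed edgeR's test for rapamycin.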

How the results depend on the processing

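Other filters on low counts, upper-quartile factors and leaving out short transcripts kept each number of members called within 1.5 times. For rapamycin (3 higher, 13 lower), the fit with no line term, which drops the pairing, gave 1 higher and 2 lower (1275 genes called in all, against 4526), and also leaving out each library in turn, still with no line term, gave 0 to 1 higher and 0 to 1 lower (0 to 613 genes). DESeq2 gave 2 and 10. For TJ against MKOC (1 higher, 6 lower), DESeq2 gave 3 lower, and limma on log2 TPM gave 0 higher with either constant and 3 lower with 0.1 or 2 lower with 1 added. For kidney against MEF (6 higher, 1 lower), DESeq2 gave 20 and 5, limma 2 and 0 with 0.1 or 3 and 0 with 1 added, and leaving out each library in turn gave 0 to 36 higher and 0 to 6 lower, while 0 to 7924 genes were called in all (1338 by edgeR with every library, 3969 by DESeq2). For the MEFs (17 higher, 1 lower), no centring gave 28 and 0 (25.2% and 5.18% of all genes), a 1.5-fold threshold 27 and 4 (24% and 21%), and 0 were lower with 5 added or with CPM. The log2 change of *E2f3* with rapamycin (-0.14) became 0.55 and 0.52 in limma with 0.1 and 1 added, where its short transcript carries weight, and that of *Mcm2* between kidney and MEF (-0.20) became 0.74 without *Tsc2*-/- MEFs and -0.74 without *Tsc2*+/+ MEFs. No other member changed sign in an alternative that called it, and none called in the main fit changed sign. Further members changed sign in alternatives that did not call them, also where another alternative did. The cause was not tested for any other of these shifts. The members had at least 141 counts in every library, but there is 1 library per condition, and the kidney and MEF comparison recovered 0 of 67 changes of 2-fold and 3 of 67 of 4-fold in simulated data.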
